A study of Mus musculus with 8 samples.

Results

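Olfactory receptor genes were followed in the mouse hippocampus, the brain region for spatial memory, far from the nose where these receptors do their known work. The members are the microarray probes for genes whose symbol starts with Olfr that were well above background in both samples of at least 1 of 4 groups. Of 1158 such probes on the array, for 1070 genes, 221 probes for 217 genes met this rule, out of 37415 probes of all kinds that met it. Members were thus chosen by their detection flags. These flags come from the same arrays as the values below, so the number of members in a group is a description and carries no test.

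Olfactory receptors are G protein-coupled receptors on the cilia of olfactory sensory neurons in the nose. Each of these neurons expresses 1 receptor gene from 1 allele and passes its signal through the G protein subunit Gnal, the adenylyl cyclase Adcy3 and the channels Cnga2 and Ano2. Transcripts of some receptors are also known from other tissues, such as testis, kidney and brain, and for most of them no function there is established.

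The tissue was hippocampus of male C57BL/6J mice, obtained at 11 weeks of age and all wild type. The mice of the SED group were sedentary on a placebo diet, those of ME were given mild treadmill running on the placebo diet, those of AX were sedentary on a diet with astaxanthin, a red carotenoid from the alga Haematococcus pluvialis, and those of AX+ME received both. The placebo and astaxanthin powders made up 0.5% of the food by weight, and the latter held 2% astaxanthin. Each group had 8 mice per the labels but only 2 array samples, replicate 1 labelled with the dye Cy3 and replicate 2 with Cy5. How 8 mice became 2 samples is not stated in the labels, so p-values measure only the spread between samples that may be technical repeats.

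All 8 samples lay on 1 slide, with the dye as its row and the group as its column, so a difference between groups and one between places on the slide cannot be told apart. The 2 SED arrays carried areas of dim spots at array columns below 70, out of 164 columns. Of the members, 138 had all their spots at column 70 or higher, 78 had them below and 5 had spots on both sides, and results against SED are given for the first of these apart. Correlation of log2 signal between arrays over all probes tested was 0.982 to 0.997. Hippocampal neuron markers were well above background on all 8 arrays in 13 of 13 genes. Signal is given throughout as log2 of the processed signal relative to the array's 75th percentile, in which 0 is the 75th percentile itself and -7.64 is a floor set for signals at or under background. Pairs of values give Cy3 first and Cy5 second.

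Few olfactory receptor probes gave signal at all. On the Cy3 arrays 21.8% (SED), 23.3% (ME), 28.3% (AX) and 24.9% (AX+ME) of the 1158 probes were well above background, and on the Cy5 arrays 16.0%, 16.0%, 14.4% and 19.8%. The same shares for the 54523 other probes ran from 71.8% to 76.5% with Cy3 and from 63.2% to 67.0% with Cy5. The AX array therefore had the highest share of olfactory receptor probes with Cy3 and the lowest with Cy5, while AX+ME was highest with Cy5 and second with Cy3. Among other probes AX was likewise highest with Cy3 (76.5%) and lowest with Cy5 (63.2%). AX+ME was there highest with Cy5 (67.0%) but lowest with Cy3 (71.8%). On both arrays of a group, 164 probes (14.2%) were well above background in SED, 162 (14.0%) in ME, 155 (13.4%) in AX and 201 (17.4%) in AX+ME. The shares of other probes were 64.2%, 63.3%, 62.6% and 65.7%, which rank the groups the same way. For the 670 probes at columns from 70 on, these shares were 17.3%, 14.8%, 13.9% and 18.1%, so that SED and AX+ME lay close together there. Of other probes at these columns, 66.9%, 63.1%, 62.4% and 65.4% were well above background on both arrays. In the dye channel that held no RNA, between 1 and 4 olfactory receptor probes per array were marked as well above background.

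**Figure D1:**
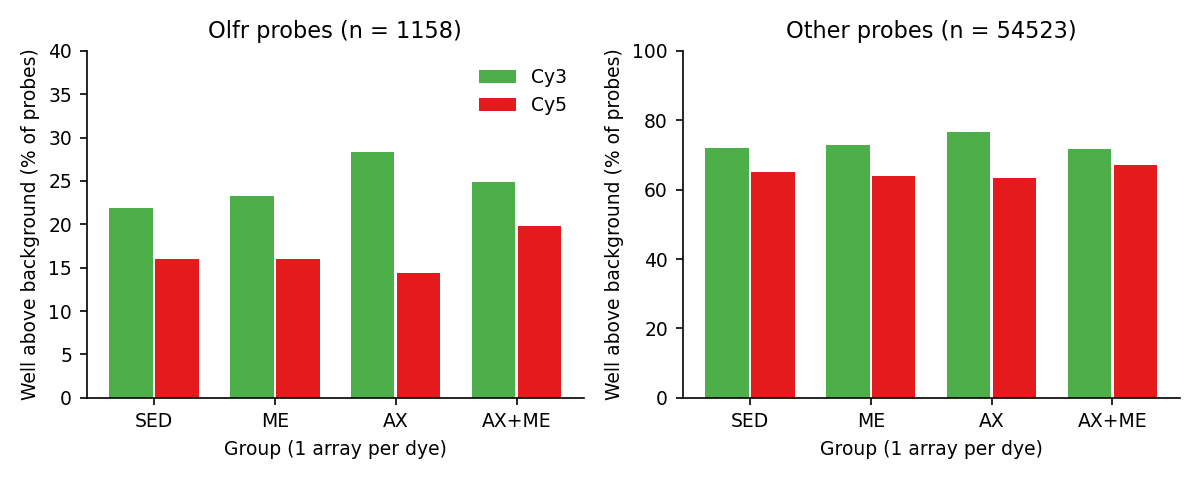
Share of probes well above background on each of the 8 arrays, for the 1158 olfactory receptor probes (left, axis to 40%) and the 54523 other probes (right, axis to 100%), in green for Cy3 and red for Cy5. Olfactory receptor probes lie between 14.4% and 28.3% and other probes between 63.2% and 76.5%.

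Of the 221 members, 129 were well above background on all 8 arrays, 26 on 7, 16 on 6, 29 on 5, 15 on 4, 5 on 3 and 1 on 2. Both arrays passed in all 4 groups for 129 members, in 3 groups for 27, in 2 groups for 20 and in 1 group for 45. Of those 45, 27 passed in AX+ME alone, 11 in SED, 5 in ME and 2 in AX. At columns from 70 on these were 15 in AX+ME, 11 in SED, 3 in ME and 1 in AX. The same split was not counted for other probes. A member that passed through 1 group had to be high there. Other chemosensory families were set beside them without a test: 33 of 179 probes for vomeronasal type 1 receptors (18.4%), 29 of 113 for vomeronasal type 2 receptors (25.7%), 10 of 40 for taste receptors (25.0%) 4 of 15 for trace amine receptors (26.7%), 2 of 3 for formyl peptide receptors (66.7%) and 1 of 6 for Ms4a4 genes and Gucy2d (16.7%) passed the rule, beside 19.1% of olfactory receptor probes and 82.4% of other probes with a gene symbol.

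Most members were dim. The mean log2 signal over 8 arrays had a median of -4.71 over the members and ran from -6.80 to 2.74. It lay below -5 in 89 members, between -5 and -2 in 111 and above -2 in 21, of which 7 were above 0. A probe's brightness depends on its sequence as well as on its transcript, so an order of probes is not an order of transcript levels. At the edge of the rule, the dimmest members were Olfr910 (mean -6.80) and Olfr1222 (mean -6.63), each well above background in both AX+ME samples and in 1 other sample. Among probes just outside it, Olfr317 (mean -5.68) passed on the 4 Cy3 arrays and no Cy5 array, and Olfr1135 (mean -5.75) passed on 3 Cy3 arrays and 1 Cy5 array without passing both in any group. The excluded probes were thus brighter than some members. Olfr78, a receptor known from kidney and carotid body, was no member, with a mean of -6.19 and 3 arrays well above background. No probe was matched to Olfr151.

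The brightest member probe was that of Olfr544, a receptor known to respond to azelaic acid and described in liver and fat. Its log2 signal was 2.70 and 2.79 in SED, 2.75 and 2.81 in ME, 2.65 and 2.83 in AX, and 2.62 and 2.74 in AX+ME. All 8 values lay within a narrow band, and the groups overlapped. Olfr1466 gave 1.97 and 2.07 in SED, 2.23 and 2.20 in ME, 2.13 and 2.00 in AX, and 2.07 and 2.06 in AX+ME. The ME values were the highest of the 4 groups in both dyes, by little. Olfr173 gave 1.66 and 1.81 in SED, 1.64 and 1.75 in ME, 1.45 and 1.51 in AX, and 1.67 and 1.83 in AX+ME, with both AX values under all others. For Olfr373 the values were 1.00 and 1.99 in SED, 1.19 and 1.39 in ME, 1.18 and 1.34 in AX, and 1.20 and 1.41 in AX+ME. The Cy5 sample of SED stood apart from the other 7, and this probe lies in the dim columns of the SED arrays. Olfr1368 gave 0.50 and 0.64 in SED, 0.42 and 0.63 in ME, 0.38 and 0.47 in AX, and 0.43 and 0.51 in AX+ME, and Olfr1229 gave 0.61 and 0.89 in SED, 0.37 and 0.30 in ME, 0.32 and 0.26 in AX, and 0.35 and 0.24 in AX+ME. In Olfr1229, also in the dim columns, both SED values lay above all others. Olfr629 (mean 0.20), Olfr1252 (-0.38), Olfr319 (-0.41) and Olfr745 (-0.70) complete the 10 brightest. None of these 10 passed the threshold in any comparison by the fit used here; with normexp background correction Olfr319 was called lower in ME (-0.45) and in AX (-0.38) than in SED.

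**Figure D2:**
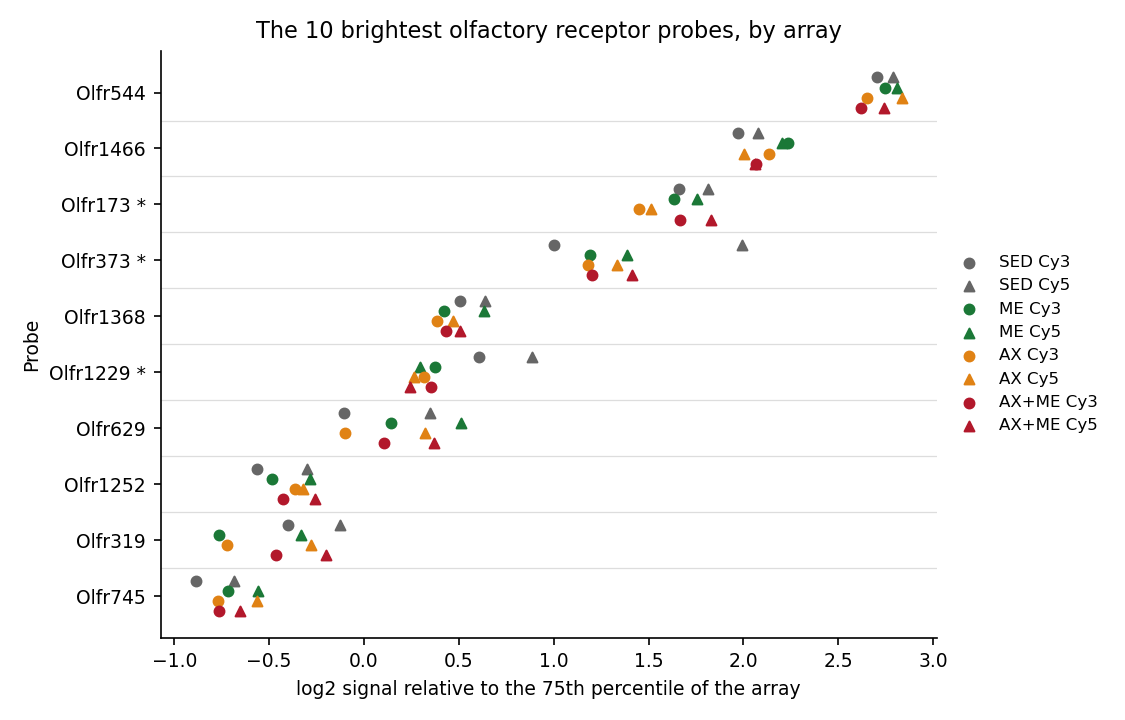
Log2 signal relative to the array's 75th percentile for the 10 brightest member probes, 1 row per probe, with circles for Cy3, triangles for Cy5 and 1 colour per group; an asterisk marks probes below array column 70. The groups overlap in most rows, and the SED Cy5 value of Olfr373 (1.99) lies apart from its other 7 values.

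Olfr558, a receptor described in kidney and blood vessels, was well above background on all 8 arrays, at -3.98 and -4.22 in SED, -4.18 and -4.25 in ME, -4.06 and -4.06 in AX, and -4.27 and -4.62 in AX+ME. The AX+ME sample was the lowest of its dye both times. The fitted difference of AX+ME against SED was -0.35, SE 0.11, adjusted p = 0.120, which did not pass.

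Sequence upstream of the genes is shown for 4 members the results turn on: the 2 brightest probes and the 2 with the largest fitted differences in AX+ME against SED. The windows are RefSeq's, from 250 bases before to 50 after the annotated start, in build GRCm38.p6 on the gene's own strand, and capitals mark a match to CCCNNGGG, the core of the motif of the olfactory neuron factors Ebf1 to Ebf4, to TAATTA, a homeodomain motif such as that of Lhx2 and Emx2, or to TATAAA, the TATA box, each searched on both strands. The windows lie at chr7:102488258-102488557 (minus strand) for Olfr544, chr19:13341510-13341809 (plus strand) for Olfr1466, chr7:104687767-104688066 (plus strand) for Olfr661 and chr7:6515378-6515677 (minus strand) for Olfr1349.
Olfr544: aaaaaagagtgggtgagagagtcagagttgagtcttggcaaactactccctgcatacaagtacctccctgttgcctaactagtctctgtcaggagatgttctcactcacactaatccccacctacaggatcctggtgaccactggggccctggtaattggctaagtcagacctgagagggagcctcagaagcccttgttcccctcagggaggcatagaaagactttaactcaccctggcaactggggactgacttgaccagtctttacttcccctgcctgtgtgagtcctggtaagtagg
Olfr1466: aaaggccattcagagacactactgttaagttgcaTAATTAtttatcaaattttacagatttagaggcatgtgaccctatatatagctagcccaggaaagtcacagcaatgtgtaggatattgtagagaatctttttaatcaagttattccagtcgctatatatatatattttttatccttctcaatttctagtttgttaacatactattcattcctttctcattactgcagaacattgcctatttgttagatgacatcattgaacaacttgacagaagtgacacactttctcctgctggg
Olfr661: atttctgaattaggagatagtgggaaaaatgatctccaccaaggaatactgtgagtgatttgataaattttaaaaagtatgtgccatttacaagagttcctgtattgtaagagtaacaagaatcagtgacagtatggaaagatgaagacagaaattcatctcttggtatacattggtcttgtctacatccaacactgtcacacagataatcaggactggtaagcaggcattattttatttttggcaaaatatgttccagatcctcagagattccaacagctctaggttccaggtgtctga
Olfr1349: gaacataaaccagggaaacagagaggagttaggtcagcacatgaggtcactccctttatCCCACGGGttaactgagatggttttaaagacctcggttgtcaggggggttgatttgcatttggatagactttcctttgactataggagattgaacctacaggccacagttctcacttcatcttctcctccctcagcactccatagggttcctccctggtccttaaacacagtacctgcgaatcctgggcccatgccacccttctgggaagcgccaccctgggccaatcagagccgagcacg
Olfr1466 held 1 TAATTA and Olfr1349 held 1 CCCNNGGG, and the windows of Olfr544 and Olfr661 held none of these letters. Over the 189 member genes with a window, TAATTA occurred in 20.6%, TATAAA in 39.2% and CCCNNGGG in 3.17%. In the 721 other olfactory receptor genes on the array the shares were 17.9%, 41.2% and 2.77%, and in 26081 other genes 4.83%, 13.2% and 13.8%. The shares of member genes lay close to those of the other receptor genes and apart from those of other genes; no test was made. The annotated start was itself an ATG in 72.5% of member genes and 73.0% of the other receptor genes, against 4.37% of other genes, so that most of these windows are set by the start of the coding sequence and not by a mapped start of transcription. A match describes letters in a window and not a site that is used.

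Receptor genes lie in clusters, and members were compared with the rest by their neighbours. In RefSeq's gene order, 15.7% of the 217 member genes had a protein-coding neighbour that is no olfactory receptor, compared with 10.7% of the 853 other receptor genes on the array. The share was 30.0% among the 20 brightest members, which is 6 genes. Another olfactory receptor gene lay on each side of 63.1% of member genes and 68.9% of the others.

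Second probes of the same gene often did not bear a member out. For 28 member genes the array held another probe. All probes were members in 4 of them (Olfr288, Olfr456, Olfr536 and Olfr681), and only some in 24. In 14 of these 24 the other probe was well above background on no array. The other probe of Olfr373 had a mean of -7.58 beside 1.34 for the member, and that of Olfr629 -6.74 beside 0.20. Among these 28 genes the probes thus disagreed more often than they agreed. The genes were chosen for having a member, so genes whose probes were all undetected are not counted. Each result rests on the named probe and not on the gene as a whole. Cross-hybridisation among related receptors was not tested, since the files hold no probe sequences.

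The 4 genes with 2 member probes show how far probes can part. In Olfr288 a probe in the dim columns gave -4.84 and -5.66 in SED, -4.04 and -3.91 in ME, -4.16 and -4.31 in AX, and -3.95 and -3.87 in AX+ME. The other, at column 70 or higher, gave -4.87 and -5.50 in SED, -5.36 and -5.16 in ME, -5.07 and -5.42 in AX, and -4.82 and -5.09 in AX+ME. The first placed SED lowest in both dyes and the second with Cy5 only: AX+ME against SED was 1.34 by the one and 0.23 by the other. In Olfr681 the dimmer probe stood at -6.96 and -7.64 in SED, -6.58 and -7.64 in ME, -6.54 and -2.83 in AX, and -7.09 and -6.21 in AX+ME. A single array, AX with Cy5, was far above the rest, and its other probe did not share this (-3.08 and -3.44 in SED, -2.89 and -2.61 in ME, -2.85 and -2.66 in AX, and -2.49 and -3.18 in AX+ME). Olfr32 had a like value on 1 array only, -1.77 in ME with Cy5, with -5.94 or less on the other 7.

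The arrays print 5 members as 10 spots each, which gives the spread within an array. Over these (Olfr53, Olfr868, Olfr713, Olfr74 and Olfr1307), the median SD of a probe's spots was 0.31 and 0.52 on the SED arrays, 0.21 and 0.41 on ME, 0.15 and 0.36 on AX, and 0.14 and 0.23 on AX+ME. Over all spots the scatter was largest on the SED array of each dye and smallest on the AX+ME array. From column 70 on it was larger on ME (0.36) than on SED (0.30) with Cy5. The median spot of Olfr74 on the SED arrays was -3.56 and -3.23 from column 70 on, but -4.23 and -4.03 below it. On the AX+ME arrays the same 2 medians were -3.10 and -3.08 from column 70 on and -3.29 and -2.87 below it. Single spots could stand far off: 1 spot of Olfr868 reached -2.46 on the SED Cy5 array, where the median of its 10 was -4.24. A member measured by 1 spot has no such check.

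**Figure D3:**
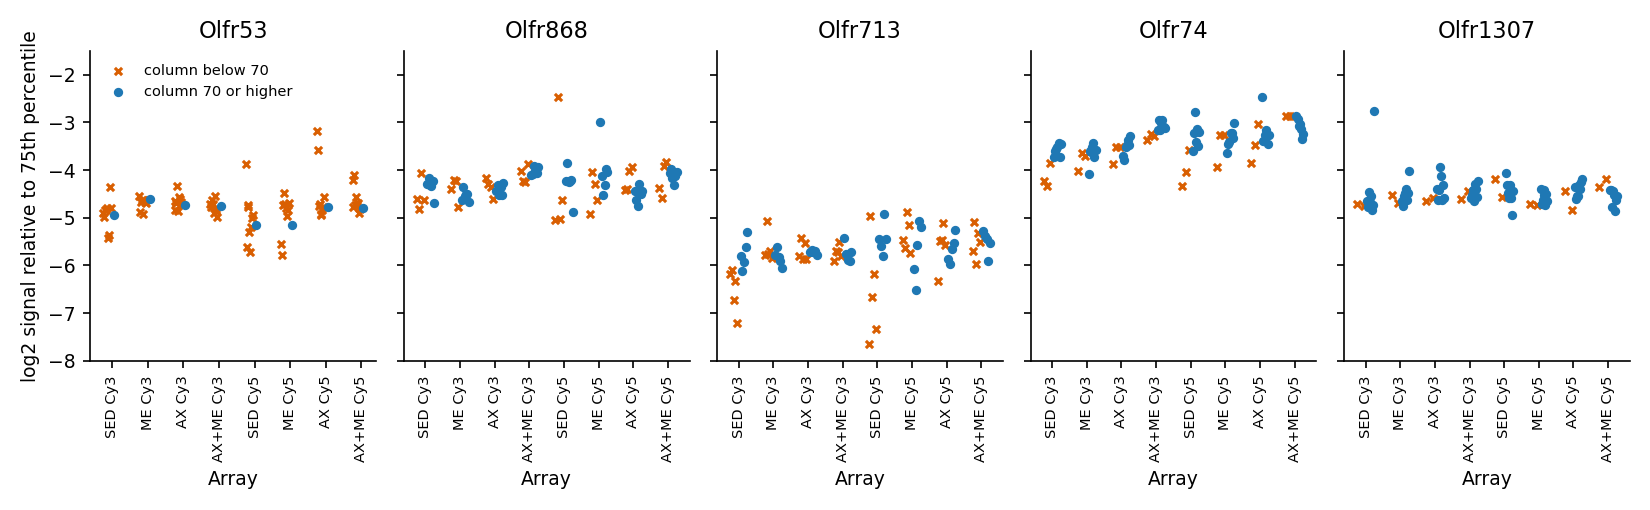
Log2 signal of each of the 10 spots of 5 replicated member probes on each array, with orange crosses for spots below array column 70 and blue circles for spots at column 70 or higher. Crosses on the SED arrays scatter downwards most clearly for Olfr713 and Olfr74, and single spots stand apart on several arrays.

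Differences between groups were tested with limma over all 37415 probes, with a term for dye, and p-values were adjusted by Benjamini-Hochberg over all of them. In ME against SED, which asks for the effect of running on the placebo diet, 3 members were higher and 0 lower at an adjusted p under 0.05. This is 1.36% of members, and over all probes the share called higher was 1.56% and the share called lower 0.543%. They were Olfr1349, Olfr61 and Olfr1232. SED was well above background on neither array for Olfr1349, where ME was at least 4.19-fold higher (adjusted p = 0.0103 by limma), or for Olfr61, where it was at least 1.70-fold higher (adjusted p = 0.0402). Olfr1349 and Olfr61 thus met the detection rule only through groups other than SED, so their calls against SED are partly set by it. Olfr1232 differed by 0.71, SE 0.07, adjusted p = 0.0244, or 0.17 (adjusted p = 0.157) with normexp, and of the 3 only it lies outside the dim columns. Normexp was run with an offset of 50 signal units, which shrinks the log2 differences of dim probes. How much of a smaller value came from the offset was not tested. An unadjusted p under 0.05 was found for 45 members (20.4%) and 22.4% of all probes. The median log2 difference was 0.04 over members and -0.05 over all probes. With normexp background correction the split turned to 1 higher and 4 lower and the members' median to -0.09, while the median of all probes moved to -0.15. Of all 37415 probes normexp called 1330 higher and 881 lower. Olfr139, not well above background in SED, was at least 1.34-fold higher in ME and did not pass (adjusted p = 0.0997). Fitted on columns from 70 alone, 0 members and 0% of all probes passed; 25 of 138 members (18.1%) had an unadjusted p under 0.05, as did 19.8% of all probes there. Leaving out 1 sample at a time, the members' median lay between 0.02 and 0.08. The number of calls depended on the sample left out, for members and for all probes.

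In AX against SED, the effect of the diet at rest, 2 members were higher and 0 lower, or 0.905% of members, where 1.67% of all probes were called higher and 0.572% lower. They were again Olfr1349, at least 3.52-fold above an SED level that was not well above background (adjusted p = 0.0115 by limma), and Olfr1232 (0.58, SE 0.07, adjusted p = 0.0349). The call of Olfr1349 is here, too, partly set by the detection rule. With normexp Olfr1232 had 0.026 (adjusted p = 0.801). An unadjusted p under 0.05 was found for 43 members (19.5%) and 24.2% of all probes. Both comparisons use the same SED samples, so the recurrence of these names is not independent. Olfr139 (at least 1.79-fold, adjusted p = 0.0612) and Olfr61 (at least 1.54-fold, adjusted p = 0.0522) did not pass, and SED was not well above background for either. The median difference was 0.13 over members and -0.03 over all probes. It was -0.08 and -0.13 with normexp, which called 2 members higher and 9 lower, and the filter on the mean signal called 0 higher and 2 lower. Of all 37415 probes normexp called 1649 higher and 2402 lower. The filter on the mean signal called 1049 of 27841 probes higher and 1413 lower. From column 70 on 0 passed, with 25 (18.1%) at an unadjusted p under 0.05, beside 22.6% of all probes there. With 1 sample left out at a time, the members' median lay between 0.09 and 0.15. Here, too, the number of calls among members and among all probes depended on the sample left out.

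Most calls came with the combined treatment. In AX+ME against SED, 16 members were higher and 0 lower, which is 7.24% of members, where 2.74% of all probes were called higher and 1.59% lower. An unadjusted p under 0.05 was found for 95 members (43.0%) and 29.6% of all probes. Of the 16 called, 9 lay at columns from 70 on, 6 below and 1 on both sides. The detection rule was met in AX+ME alone by 3 of them (Olfr661, Olfr139 and Olfr767) and in another group as well by 13. Of the 13, Olfr61 met it in 2 groups, Olfr1349, Olfr1348, Olfr122 and Olfr29-ps1 in 3, and the others in all 4. Olfr61 and Olfr1349 were well above background on neither SED array. They were thus chosen through groups where they were higher than SED, and their calls against SED are partly set by the rule. Of the 16, 8 were also called with normexp, 8 with quantile normalization, 6 with no filter on dim probes and 12 without the dye term. The members' median difference was 0.35 and that of all probes -0.02. Of 221 members 177 (80.1%) were higher, where 46.4% of other probes were. These values are partly set by the detection rule, which 27 members met in AX+ME alone. With normexp the medians were 0.06 and -0.12 and the calls 13 higher and 10 lower. Of all 37415 probes normexp called 2103 higher and 4174 lower. With a filter on the mean signal over all samples, which tested 55 olfactory receptor probes, 6 were higher and 2 lower, the latter Olfr522 and Olfr715b in the dim columns, named after their values were seen. Of all 27841 probes so tested 1443 were higher and 2160 lower. With no filter on dim probes, 13 of 1158 olfactory receptor probes were called higher and 0 lower. Of all 55681 probes 945 were then called higher and 943 lower. The fit on columns from 70 alone left 1 call, Olfr1232, where 0.00926% of all probes were called, with an unadjusted p under 0.05 for 57 members (41.3%) and 29.9% of all probes there, and with a median of 0.34 over members and -0.04 over all probes. In fits without 1 sample the members' median lay between 0.33 and 0.39. How many calls remained depended on the sample left out, for members and for all probes.

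Olfr1232 was the member called in all 3 comparisons with SED from outside the dim columns. Its log2 signal was -5.60 and -5.45 in SED, -4.86 and -4.78 in ME, -4.98 and -4.92 in AX, and -3.94 and -3.96 in AX+ME. The 4 groups did not overlap: SED was lowest, AX and ME were close together, and AX+ME was highest in both dyes. AX+ME exceeded SED by 1.58, SE 0.07, adjusted p = 0.00935. Its difference from ME was 0.87, SE 0.07, adjusted p = 0.258 and from AX 1.00, SE 0.07, adjusted p = 0.510, neither of which passed. With normexp its difference of AX+ME from SED was 0.65 (adjusted p = 0.0082). The call was lost in each of the 6 fits without a sample of ME, AX or AX+ME (adjusted p = 0.0699 to 0.125).

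The members Olfr661, Olfr139 and Olfr767 met the detection rule through AX+ME alone, so their higher level there was part of how they were chosen, and their differences are a description. Olfr661 had the largest fitted difference among members in AX+ME against SED. It gave -7.12 and -7.64 in SED, -6.24 and -6.42 in ME, -6.62 and -6.31 in AX, and -4.78 and -4.14 in AX+ME, with the SED Cy5 value at the floor. Both AX+ME values lay well above the other 6. SED was not well above background on either array, so the difference of AX+ME from SED is given as at least 3.37-fold, with measured means of -4.46 and -7.38. Olfr139 gave -7.28 and -6.62 in SED, -5.89 and -5.70 in ME, -5.23 and -5.51 in AX, and -4.64 and -4.83 in AX+ME. SED was lowest and AX+ME highest in both dyes without overlap. AX+ME was at least 2.79-fold above SED, where it was not well above background (means -4.73 and -6.95). Olfr767, at -6.73 and -6.67 in SED, -6.40 and -5.91 in ME, -6.24 and -6.44 in AX, and -5.55 and -5.49 in AX+ME, was highest in AX+ME in both dyes as well. Its difference was at least 1.62-fold (means -5.52 and -6.70). With normexp the fitted differences of these 3 were 0.72, 0.55 and 0.14 on the log2 scale, and with a floor of 0.02, 1.18, 0.91 and 0.12. For Olfr767 a second probe was well above background on no array.

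The other 5 called members outside the dim columns were well above background on all 8 arrays. Olfr166 gave -4.15 and -4.24 in SED, -3.81 and -3.89 in ME, -3.93 and -4.02 in AX, and -3.21 and -3.01 in AX+ME, and AX+ME exceeded SED by 1.09, SE 0.09, adjusted p = 0.0192. Olfr577 gave -5.03 and -4.98 in SED, -4.74 and -4.82 in ME, -4.60 and -4.88 in AX, and -4.25 and -4.13 in AX+ME, a difference of 0.82, SE 0.11, adjusted p = 0.0428. Both AX+ME values lay above the other 6 in each of these. Olfr441 gave -4.07 and -4.06 in SED, -3.73 and -3.61 in ME, -3.79 and -3.94 in AX, and -3.17 and -3.36 in AX+ME, a difference of 0.80, SE 0.10, adjusted p = 0.0343. Olfr1339 gave -4.88 and -4.75 in SED, -4.99 and -4.64 in ME, -5.14 and -4.94 in AX, and -4.13 and -4.10 in AX+ME, a difference of 0.70, SE 0.09, adjusted p = 0.0377. In Olfr441 and Olfr1339, too, both AX+ME values stood above the rest, and in Olfr1339 SED, ME and AX overlapped. Olfr1419 differed from these: at -4.49 and -4.40 in SED, -4.26 and -3.97 in ME, -4.02 and -3.83 in AX, and -3.92 and -3.85 in AX+ME, its AX and AX+ME values overlapped, and AX+ME exceeded SED by 0.56, SE 0.08, adjusted p = 0.0429. With normexp Olfr166 (0.49) and Olfr441 (0.31) were still called, while Olfr577 (0.17, adjusted p = 0.307), Olfr1339 (0.18, adjusted p = 0.143) and Olfr1419 (0.27, adjusted p = 0.0783) were not.

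**Figure D4:**
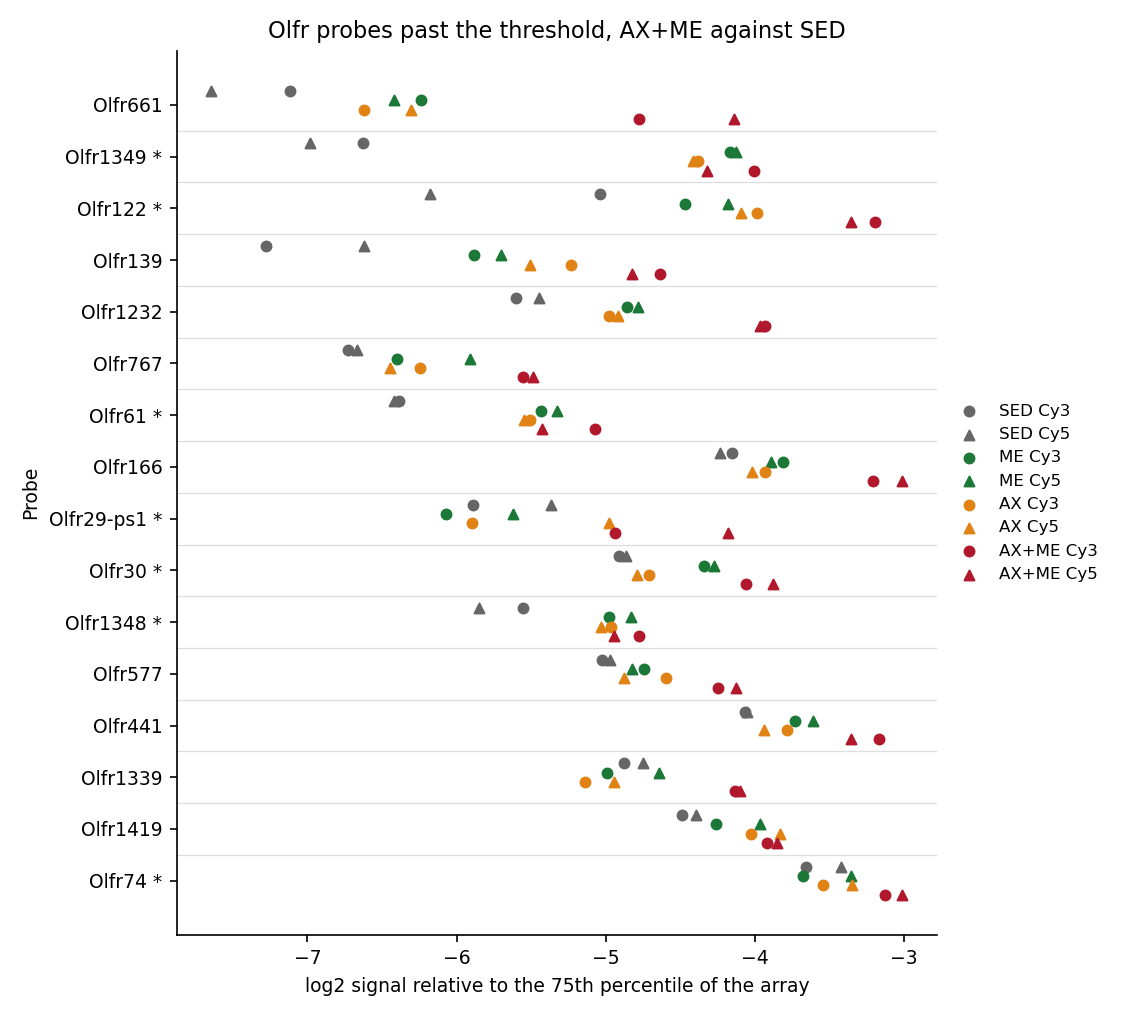
Log2 signal relative to the array's 75th percentile for the 16 member probes past the threshold in AX+ME against SED, ordered by the fitted difference, with circles for Cy3, triangles for Cy5 and 1 colour per group; an asterisk marks probes with any spot below array column 70. SED lies at the left and AX+ME at the right of most rows; in 12 of 16 both AX+ME values exceed the other 6, and in Olfr1349 the 6 treated values lie together.

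Another 6 called members lay in the dim columns of the SED arrays. Whether a low SED value came from the dim areas was not tested probe by probe. The largest was Olfr1349, at -6.63 and -6.98 in SED, -4.17 and -4.13 in ME, -4.38 and -4.42 in AX, and -4.01 and -4.32 in AX+ME. The 6 values of ME, AX and AX+ME overlapped, and both SED values lay far below them and not well above background. AX+ME was at least 4.14-fold above SED (2.64, SE 0.12, adjusted p = 0.00935; means -4.17 and -6.81), ME at least 4.19-fold and AX at least 3.52-fold. Its neighbours on the chromosome are Olfr1348, also in the dim columns, and beyond it Olfr1347, at column 70 or higher. Olfr1348 gave -5.55 and -5.85 in SED, -4.98 and -4.83 in ME, -4.97 and -5.03 in AX, and -4.78 and -4.94 in AX+ME, with both SED values lowest and AX+ME 0.84, SE 0.12, adjusted p = 0.0433 above SED. Olfr1347 gave -1.79 and -2.02 in SED, -2.11 and -2.22 in ME, -2.02 and -2.19 in AX, and -2.04 and -2.15 in AX+ME, with both SED values above the others of their dye.

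Olfr122 gave -5.04 and -6.18 in SED, -4.47 and -4.18 in ME, -3.99 and -4.09 in AX, and -3.20 and -3.36 in AX+ME. SED was lowest and AX+ME highest in both dyes, and AX+ME exceeded SED by 2.33, SE 0.35, adjusted p = 0.0473. Olfr61, at -6.39 and -6.42 in SED, -5.44 and -5.33 in ME, -5.51 and -5.55 in AX, and -5.07 and -5.43 in AX+ME, was not well above background in SED. There AX+ME was at least 1.87-fold higher (1.16, SE 0.12, adjusted p = 0.0277, means -5.25 and -6.41). Olfr30 gave -4.91 and -4.86 in SED, -4.34 and -4.27 in ME, -4.71 and -4.79 in AX, and -4.06 and -3.88 in AX+ME, with AX+ME 0.92, SE 0.08, adjusted p = 0.0190 above SED and above all 6 other values. With normexp Olfr61 had 0.21 (adjusted p = 0.113) and with a floor of 0.02 0.39 (adjusted p = 0.124). The transcribed pseudogene Olfr29-ps1 gave -5.89 and -5.37 in SED, -6.07 and -5.62 in ME, -5.90 and -4.98 in AX, and -4.94 and -4.18 in AX+ME. Here Cy5 exceeded Cy3 in every group, and within each dye AX+ME was highest (difference from SED 1.07, SE 0.13, adjusted p = 0.0362). Its call was lost with normexp (0.21, adjusted p = 0.215) and without the dye term (adjusted p = 0.202). Olfr74, the probe with 10 spots, gave -3.66 and -3.42 in SED, -3.68 and -3.36 in ME, -3.55 and -3.35 in AX, and -3.13 and -3.02 in AX+ME. AX+ME exceeded the other 6 values, and its difference from SED was 0.47, SE 0.07, adjusted p = 0.0474. With normexp Olfr1349 (0.86), Olfr122 (1.15) and Olfr30 (0.54) were still called, while Olfr1348 (0.16, adjusted p = 0.205) and Olfr74 (0.23, adjusted p = 0.0795) were not.

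Set against the single treatments, AX+ME was again higher in most members, and these comparisons use no SED sample. The members include 27 that passed the detection rule in AX+ME alone, so the counts below are partly set by the rule. In the 129 members detected on all 8 arrays, the medians were 0.18 against ME and 0.13 against AX. Other probes so detected had 0.01 in each but are not matched for signal. In the bins -6 to -5, -5 to -4 and -4 to -3 of mean log2 signal, other probes had 0.18, 0.11 and 0.07 against ME. Members there had 0.39, 0.26 and 0.21. Against AX other probes had 0.07, 0.03 and 0.01, and members 0.25, 0.26 and 0.21. Against ME, 175 of 221 members (79.2%) were higher, where 54.4% of other probes were, with a median of 0.23 over members and 0.01 over all probes. Against AX, 168 (76.0%) were higher, where 53.4% of other probes were, with a median of 0.19 over members and 0.01 over all probes. Limma called 0 members and 0% of all probes in either; at an unadjusted p under 0.05 in either direction there were 63 members against ME (28.5%, where 8.34% of all probes were) and 50 against AX (22.6%, where 5.92% were). Fitted on columns from 70 alone these were 56 of 138 (40.6%, where 13.2% of all probes were) and 44 (31.9%, where 9.61% were). With no filter on dim probes limma called 1 olfactory receptor probe in each, that of Olfr1427, which is no member and lies near the floor at a mean of -7.40. The medians were 0.12 against each with normexp, and 0.12 and 0.15 with quantile normalization. The smallest p-values among members moved by 1.5-fold in both dyes were those of Olfr1232 and, against ME, Olfr166 (0.74, SE 0.09, adjusted p = 0.364) and, against AX, Olfr1339 (0.92, SE 0.09, adjusted p = 0.510). Below column 70, Olfr29-ps1 differed from ME by 1.28, SE 0.13, adjusted p = 0.327 and Olfr30 from AX by 0.78, SE 0.08, adjusted p = 0.510. None of these passed. The comparisons of AX+ME with SED, ME and AX share the 2 AX+ME samples, so they do not support one another.

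Differences were also counted without a model. Members were dimmer than most probes, so the shares over all probes here are not matched for signal. In ME against SED, 14 members (6.33%) were at least 1.5-fold higher in both dyes and 1 lower, where 2.83% of all probes were higher and 0.829% lower; from column 70 on 4 of 138 (2.90%) were higher and 1 lower, where 0.148% and 0.815% were. In AX against SED, 14 (6.33%) were higher and 0 lower, where 3.21% and 0.668% of all probes were; from column 70 on 1 was higher and 0 lower, where 0.296% and 0.398% were. In AX+ME against SED, 48 members (21.7%) were at least 1.5-fold higher in both dyes and 0 lower, where 4.15% of all probes were higher and 1.05% lower. From column 70 on 26 of 138 (18.8%) were higher and 0 lower, where 1.22% and 0.653% of all probes were. Against ME 31 members (14.0%) were higher and 1 lower, where 1.11% of all probes were higher and 0.158% lower, and against AX 23 (10.4%) and 1, where 0.644% and 0.342% were. From column 70 on these were 20 (14.5%) and 1 against ME, where 1.22% and 0.157% of all probes were, and 16 (11.6%) and 1 against AX, where 0.769% and 0.366% were. By mean log2 signal over all columns, bins were below -6, -6 to -5, -5 to -4 and -4 to -3. In ME against SED 11.8%, 11.1%, 6.45% and 0% of members were higher, beside 16.5%, 5.66%, 3.64% and 2.48% of other probes. In AX against SED these were 11.8%, 12.5%, 4.84% and 0%, beside 20%, 7.37%, 4.53% and 3.00%. In AX+ME against SED they were 70.6%, 26.4%, 21.0% and 12.1%, beside 28.5%, 11.8%, 7.05% and 3.58%. From -3 up the members' share was 0% in each. AX+ME was the highest of the 4 groups in both dyes in 91 members (41.2%), where this held for 11.2% of all probes, and from column 70 on in 61 (44.2%), where it held for 12.5%. Both AX+ME values lay above all 6 others in 71 members (32.1%), where this held for 5.87% of all probes; from column 70 on it held for 51 of 138 (37.0%), where 6.7% of all probes did so. The counts of the last 2 kinds were chosen after the values were seen. As 27 members passed the detection rule only in AX+ME, 15 of them from column 70 on, these shares are partly set by the rule.

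Differences of 1.5-fold were therefore also counted without the rule. Over all 1158 olfactory receptor probes the median difference of AX+ME was 0 against SED, ME and AX, as it was over all 55681 probes. The median olfactory receptor probe lay at the floor (-7.64) on every array. The other probes in these counts are not matched for signal. Over all 1158 olfactory receptor probes on the array, detected or not, 90 (7.77%) were at least 1.5-fold higher in AX+ME than in SED in both dyes and 9 lower, while 4.07% of other probes were higher and 1.34% lower. For the 670 at columns from 70 on, 42 (6.27%) were higher and 5 lower, beside 1.62% and 1.09% of other probes. Against ME 72 of 1158 were higher and 2 lower, and against AX 54 and 4, beside 1.69% and 1.05% of other probes higher. In ME against SED, 6 of the 670 were higher and 8 lower, beside 0.275% and 1.23% of other probes, and in AX against SED 5 and 5, beside 0.492% and 0.677%. In the 129 members well above background on all 8 arrays, the median of AX+ME against SED was 0.20, beside -0.03 over other probes so detected, and in the 86 of them from column 70 on it was 0.22 beside -0.04.

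By array, the median log2 signal of these 86 members was -4.04 and -4.03 in SED, -4.06 and -3.96 in ME, -3.94 and -3.89 in AX, and -3.72 and -3.63 in AX+ME. AX+ME was highest and AX second in both dyes, and SED and ME changed places between dyes. The medians of all 37415 probes differed far less, between -1.52 and -1.49, but these probes are brighter. Other probes of -6 to -3 from column 70 on, 6954 in number, come nearer in signal. Their medians were -4.390 and -4.330 in SED and -4.442 and -4.446 in ME. They were -4.348 and -4.369 in AX and -4.325 and -4.326 in AX+ME, highest there in both dyes too. The 102 members of that signal had -4.92 and -4.85 in SED and -4.48 and -4.43 in AX+ME. Signal at negative control spots was set beside this, and its part in the shift was not tested. Its median relative to the array's 75th percentile was -0.389% and -0.501% in SED and -0.374% and -0.554% in ME. It was -0.319% and -0.602% in AX and -0.429% and -0.474% in AX+ME, lowest there with Cy3 and highest with Cy5. The 95th percentile of these spots was 0.145% and 0.429% in SED and 0.003% and 0.596% in ME. In AX it was 0.048% and 0.742%, and in AX+ME 0.095% and 0.740%.

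The size of the shift went with signal. Among members from column 70 on, the median of AX+ME against SED was 0.91 in the 14 with a mean log2 signal below -6, 0.43 in 41 between -6 and -5, 0.37 in 37 between -5 and -4, 0.28 in 24 between -4 and -3, 0.16 in 8 between -3 and -2, and 0.06 in 14 at -2 or higher. Other probes of like signal had -0.12, 0.03, 0.04, 0.01, -0.02 and -0.06. Members thus lay above other probes of like signal in every bin, by least in the brightest. Against ME the members had 0.41, 0.32 and 0.23 in the 3 bins from -6 to -3, and other probes 0.19, 0.12 and 0.07. Against AX they had 0.25, 0.25 and 0.21, and other probes 0.07, 0.03 and 0.01. The dimmest bin holds the probes most open to the detection rule and to the floor.

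**Figure D5:**
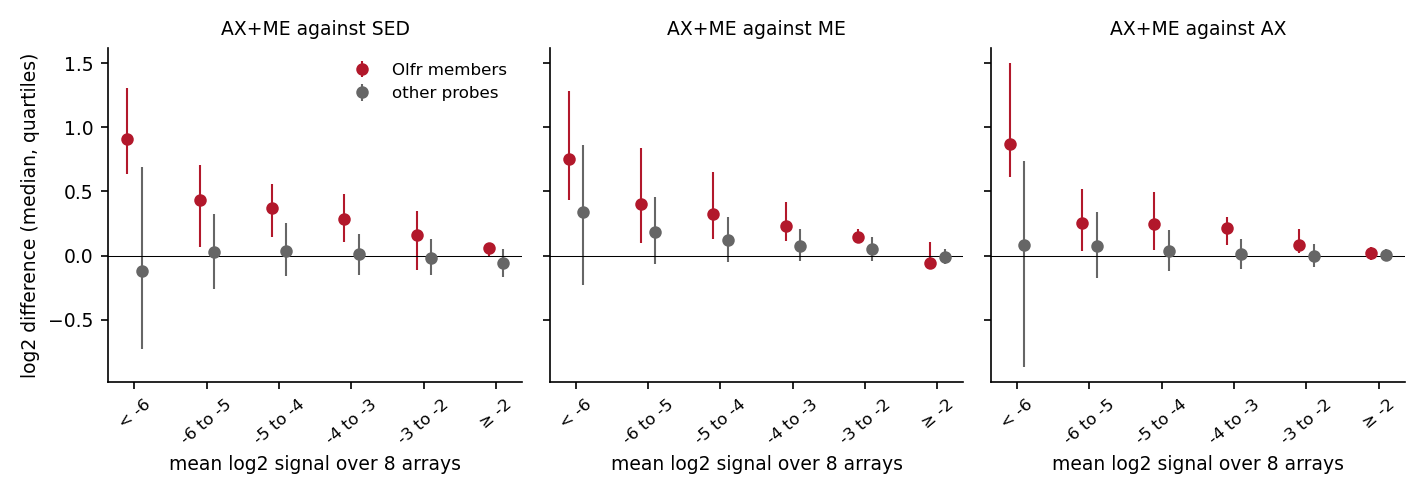
Median log2 difference of AX+ME against SED, ME and AX (points, with lines from the lower to the upper quartile) in 6 bins of mean log2 signal, for members at array columns from 70 on (red) and other probes there (grey). The red points lie above the grey ones in all bins except the brightest of AX+ME against ME; against SED they fall from 0.91 to 0.06 as signal rises.

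Other chemosensory receptors were set beside the olfactory ones. The 33 detected vomeronasal type 1 receptor probes, for pheromone receptors, had a median of 0.27 in AX+ME against SED, with 3 called higher, and the 10 taste receptor probes had 0.28, with 1 called higher. The 29 vomeronasal type 2 receptor probes had 0.09, with 2 called higher. With none called, the 4 trace amine receptor probes had -0.06, the 2 formyl peptide receptor probes 2.09 and the 1 probe of the Ms4a4 genes and Gucy2d -0.58. No test was made of the difference between these families and the olfactory receptors.

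A departure from additivity is the effect of running on the astaxanthin diet minus that on the placebo diet. It was called for 1 member, Olfr1349 (-2.42, SE 0.17, adjusted p = 0.0477), where 0.16% of all probes were called lower and 0.00802% higher. Olfr1349 lay at much the same level in ME, AX and AX+ME and lower in SED, and its probe lies in the dim columns. An unadjusted p under 0.05 was found for 40 members (18.1%) and 13.5% of all probes. In both dyes 14 members (6.33%) were past 1.5-fold upward and 5 (2.26%) downward, where 1.44% and 2.91% of all probes were, and from column 70 on 13 (9.42%) and 1, where 1.73% and 0.384% were. From column 70 on limma called 0 members and 0% of all probes, and 32 members (23.2%) had an unadjusted p under 0.05, beside 12% of all probes; the median was 0.20 over members and 0.05 over all probes. With normexp Olfr1349 had -0.71 and did not pass, Olfr1413 was called higher and none lower, and with no filter Olfr1427 and Olfr180, both near the floor and no members, were called higher; these were named after their values were seen. Of all 37415 probes normexp called 53 higher and 509 lower. With no filter 15 of 55681 probes were higher and 36 lower. Outside the dim columns the smallest p-values among members moved by 1.5-fold in both dyes were those of Olfr1339 (0.93, SE 0.13, adjusted p = 0.108) and 1 probe of Olfr536 (0.88, SE 0.14, adjusted p = 0.127), which did not pass. The other probe of Olfr536 had -0.18.

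The genes that carry a receptor's signal were measured beside the receptors. All 18 measured genes of olfactory signal transduction were well above background on all 8 arrays. In AX+ME against SED 0 of 18 passed, with a median of -0.16, and in ME against SED 1 was higher, the calcium-activated chloride channel gene Ano2 (1.29, adjusted p = 0.0300), whose probe lies in the dim columns. Of 6 receptor trafficking genes 5 were tested, and 0 passed in any comparison. Of 13 regulators of receptor choice and olfactory neurons 1 was higher in AX+ME against SED, the homeobox gene Emx2 (0.42, adjusted p = 0.0473), also in the dim columns.

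Markers of other tissues were set beside the shift, and their part in it was not tested. Omp, the defining marker of mature olfactory neurons, was well above background on all arrays at -2.93 to -2.67, with -2.79 and -2.68 in AX+ME. Of 15 markers of these neurons 14 were detected on all arrays, many of which the brain also expresses, and their summed signal was 3178% and 3517% of the 75th percentile in SED, 2941% and 2838% in ME, 2576% and 2602% in AX, and 2617% and 2624% in AX+ME. The sum was highest in SED in both dyes, but most of it came from 1 gene, Gng13, whose probe lies in the dim columns. Gng13 stood at 4.74 and 4.87 in SED and 4.40 and 4.37 in AX+ME. Its mean was 4.54, and the next brightest marker, Slc17a6, had 0.65. Over the 14 tested markers the median of AX+ME against SED was -0.02. Of 6 sustentacular cell markers, 3 (Cyp2g1, Muc2 and Sult1c1) were well above background on no array, Cyp1a2 on 1, and Cbr2 (mean -1.37) and Ermn (mean 3.67), also a gene of oligodendrocytes, on all 8. Of 7 choroid plexus markers, all detected on 8 arrays, 4 were lower in ME and 5 in AX+ME than in SED, and the summed signal was 6197% and 4624% in SED, 5295% and 4313% in ME, 5579% and 4712% in AX, and 4745% and 4547% in AX+ME. Of 6 testis markers 2 were tested, with a median of 0.36 in AX+ME against SED, 1 of them called higher. The summed signal of the 6 was 13.5% and 14.3% in SED, 14.4% and 16.0% in ME, 16.1% and 16.5% in AX, and 18.0% and 17.0% in AX+ME, highest in AX+ME in both dyes, and Odf1 was well above background on no array. In bulk tissue, more cells of a kind and more RNA per cell cannot be told apart.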

How the data were processed

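Total RNA from hippocampus was purified on RNeasy Mini columns, labelled (Low Input Quick Amp, two-colour) and hybridised to mouse arrays, 1 sample per array in 1 dye, per the labels' protocols. The deposited scanner files hold linear spot intensities. The submitters' processing notes name Agilent's Feature Extraction software, release 11.0.1.1. Signals were background-subtracted and detrended within the array per the file headers, with probes designed on build mm9. The deposited series-wide table holds the same intensities to within 0.5 of the own-dye processed signal, so it is linear, neither centred nor scaled. No paper is used here.

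The processed signal of the dye holding the RNA was used. Control spots and non-uniform outliers were left out, saturated spots kept, and spots of a probe averaged. Each array's signals were scaled to its 75th percentile, floored at 0.005 of that value, and put on a log2 scale. Symbols came from the files' accessions through RefSeq's gene table (26582 of 55681 probes). A probe was detected on an array where a share of at least 0.5 of its spots was well above background, and tested where detected on both arrays of a group. All 8 samples entered 1 limma fit (limma 3.58.1, R 4.3.3) with group and dye terms (3 residual and 1.53 prior degrees of freedom), two-sided, with Benjamini-Hochberg adjustment over 37415 probes and a threshold of 0.05. The replicate number in the labels is the dye, so the dye term is the replicate block. The fit was tested on simulated data.

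Where both arrays of a group lacked signal well above background, the fold is a lower bound ("at least"). For that group each array contributed its lowest signal among probes well above background, or the probe's own signal if higher, and the average of these was set against the mean of the bright group. Array number, not counting depth, limits precision. Members, gene lists and the rule for named genes (the 10 brightest, the largest differences past the threshold by array column, otherwise the smallest p-values at 1.5-fold in both dyes, genes with several member probes, and fixed names) were chosen with earlier results of these data known; the floor, signal bins, motifs and neighbour counts were chosen after seeing the data. Alternatives changed the background correction, scaling, filter, columns, probes per gene, dye term, floor and the samples. The files hold median and not mean spot signals, so normexp was run on the median. An offset of 50 units was added to each corrected spot, where the 75th percentile of processed signal was 1420 to 2319 units. Such an offset shrinks the log2 differences of dim probes most. Python 3.11.15 and pandas 2.3.3 were used for tables and matplotlib 3.10.9 for figures.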

Additional observations from a re-analysis of the deposited data

Results flagged for a closer look

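Olfr1349 was singled out because the effect of running differed between the diets. The difference, running on the astaxanthin diet minus running on the placebo diet, was -2.42 (adjusted p = 0.0477 by limma, 2 samples per group). Running raised the fitted signal by 2.66 on the placebo diet and by 0.23 more than astaxanthin alone on the other. Its probe lies in the dim columns of both SED arrays, SED was well above background on neither array, and the call was lost with normexp (-0.71), with no filter on dim probes (-2.42), with the brightest probe per gene (-2.42), with a floor of 0.02 (-1.26) and without any 1 sample of ME, AX or AX+ME. The filter on the mean signal and the fit on columns from 70 did not test this probe.

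Signal in the dye channel that held no RNA was marked as well above background for 1 member on the AX+ME Cy3 array (Olfr332), 1 on the ME Cy5 array (Olfr32) and 2 on the AX+ME Cy5 array (Olfr456 and Olfr700), and for none on the other 5 arrays. Olfr32 is the probe whose own-dye signal was far above the rest on that 1 array. Over all other probes on the arrays, between 0.917% and 1.55% were marked so.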

How the results depend on the processing

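Among 510 recomputed values of named probes, 370 kept direction and side of the threshold, 133 lost the call, 6 gained it and 1 reversed: Olfr661 in ME against SED was -0.020 with normexp, where all probes' medians against SED moved to -0.15 (ME), -0.13 (AX) and -0.12 (AX+ME). Members called in ME, AX and AX+ME against SED were 3, 2 and 16. With normexp they were 5 and 11 for ME and AX, with quantile normalization 1 for AX and 8 for AX+ME, with the mean filter 1 for ME and 8 for AX+ME, and from column 70 on 0, 0 and 1. Of all 37415 probes quantile normalization called 628 higher and 232 lower for AX, and 863 and 579 for AX+ME. The mean filter called 843 of 27841 probes higher and 1135 lower for ME. Without the dye term, which is the replicate block, the members called were 5 for ME and 4 for AX. Of all 37415 probes 588 were then called higher and 146 lower for ME, and 650 and 137 for AX. The interaction's 1 call became 2 with no filter and 0 with the mean filter, from column 70 on, with the brightest probe per gene and with a floor of 0.02 (chosen after seeing the data); with no filter AX+ME against ME and against AX had 1 call each. Leaving out 1 sample gave 0 to 28 calls for ME, 0 to 28 for AX, 0 to 42 for AX+ME, 0 to 0 for AX+ME against ME and against AX, and 0 to 14 for the interaction. Such a fit assumes that the lone sample varies like the other groups. The highest of these counts all came from the fit without the SED Cy3 sample. Calls over all probes rose there as well, so these counts are no result particular to members. Counting detection on at least 1 array gave 23.66% (SED), 25.30% (ME), 29.36% (AX) and 27.29% (AX+ME) of olfactory receptor probes, and 17.31% for SED on both arrays from column 70 on. Most members lie within a few log2 units of the lowest signal well above background (-6.84 to -5.32), which limits their precision.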
